A study of Rattus norvegicus with 6 samples.

Results

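Potassium channel genes were examined in RNA of pancreatic duct glands from HIP and wild-type (WT) rats. They were chosen by name alone, as every gene symbol that starts with Kcn, goes on in lower-case letters and ends in a number, which gave 82 of 15679 listed rows. The 82 genes comprised 37 voltage-gated channel genes, 13 inward rectifiers, 10 tandem-pore channels, 7 channels activated by calcium or sodium and 15 auxiliary subunits. Related genes with other symbols, such as Kcnrg and the Hcn genes, fall outside this rule. Kcnj16 fits the rule but is not among the listed rows, so it was not analysed.

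Pancreatic duct glands are small mucin-rich pouches that open into the larger ducts, and here they were recognised by shape and cut out by laser microdissection. Their total RNA was sequenced after low-input library preparation. There were 3 libraries from pre-diabetic HIP rats (HIP30, HIP2 and HIP3) and 3 from WT rats (WT26, WT1 and WT4), all of Sprague-Dawley strain and each named by the number in its title. HIP rats express human islet amyloid polypeptide, a transgene driven in beta cells. Which cells of the dissected material expressed it was not measured. The labels give neither age nor sex, nor do they tie each library to a separate animal. The p-values therefore speak of library spread, part of which may be technical. Within a group, values follow the order HIP30, HIP2 and HIP3, or WT26, WT1 and WT4.

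Potassium channels set the membrane voltage of secretory epithelia. When a duct cell releases chloride and bicarbonate through the apical anion channel Cftr, potassium leaving through channels in the same cell keeps the interior negative and so maintains the driving force for anion exit. Channels opened by calcium, such as those of Kcnn4 and Kcnma1, and the cAMP-coupled complex of Kcnq1 with Kcne3 are the textbook routes in secretory epithelia. In beta cells the channel of Kcnj11 and Abcc8 closes when glucose raises ATP, which starts insulin release.

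Levels are given as CPM, a gene's reads scaled to the total over all listed genes of the library. A library held 15141136 to 17574682 reads, and 1 read was worth 0.0569 to 0.066 CPM. A count of 0 allowed up to 3 reads, or 0.171 to 0.198 CPM, for counting error only. Genes without a read numbered 2440, 2155 and 1837 in the HIP libraries, against 2822, 2488 and 672 in the WT libraries, so that WT4 stood apart. The insulin gene Ins1 stood at 0, 104 and 3631 CPM in the HIP libraries, against 0, 64.4 and 8068 CPM in the WT libraries, so that HIP3 and WT4 alone exceeded 1000 CPM. Duct markers were present in every library, and all 13 listed genes of that list had reads in all 6 libraries, though Tff2 had only 3 in WT26. Duct markers summed to 14278, 12776 and 15051 CPM in the HIP libraries, against 28171, 16235 and 13026 CPM in the WT libraries. Markers of acinar cells summed to 25.7 to 137 CPM per library and those of endothelium to 176 to 332 CPM. Proteins, currents and cell position were not measured, and in such bulk samples fewer cells of a type and less RNA per cell cannot be told apart. CPM is not corrected for transcript length, so levels are compared between libraries and not between genes.

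The start regions of 4 channel genes are shown because their levels behaved differently across the libraries. Kcne3 was steady, Kcnd3 and Kcnma1 stood high in the same libraries, and Kcna4 had reads in HIP3 and WT4 alone. Each window runs from 250 bases before to 50 bases after the annotated start, in RefSeq's rat build GRCr8, which differs from the build of the expression tables. Capitals mark the GC box GGGCGG, bound by Sp-type factors, on either strand; the TATA box TATAAA and the cAMP response element TGACGTCA were searched on both strands too, with 0 matches in these 4 windows.
Kcne3, chr1:163935785-163936084, plus strand: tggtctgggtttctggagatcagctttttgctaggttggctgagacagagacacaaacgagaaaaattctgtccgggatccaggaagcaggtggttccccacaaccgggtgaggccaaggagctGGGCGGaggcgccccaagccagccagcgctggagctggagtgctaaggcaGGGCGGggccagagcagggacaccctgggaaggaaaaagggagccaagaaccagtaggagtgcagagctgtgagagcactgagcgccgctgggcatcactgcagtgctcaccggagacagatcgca
Kcnd3, chr2:195626066-195626365, plus strand: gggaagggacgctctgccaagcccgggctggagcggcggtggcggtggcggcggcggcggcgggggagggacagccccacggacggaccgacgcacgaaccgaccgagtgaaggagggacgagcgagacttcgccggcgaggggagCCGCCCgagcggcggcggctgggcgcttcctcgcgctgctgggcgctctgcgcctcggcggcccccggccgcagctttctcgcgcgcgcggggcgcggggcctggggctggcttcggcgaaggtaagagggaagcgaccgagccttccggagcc
Kcnma1, chr15:351675-351974, plus strand: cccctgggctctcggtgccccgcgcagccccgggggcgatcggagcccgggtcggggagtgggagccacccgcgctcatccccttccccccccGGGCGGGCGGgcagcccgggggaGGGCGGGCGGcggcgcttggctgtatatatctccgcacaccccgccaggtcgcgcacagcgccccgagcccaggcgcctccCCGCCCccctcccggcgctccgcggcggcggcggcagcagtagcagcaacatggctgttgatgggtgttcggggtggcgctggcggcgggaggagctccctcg
Kcna4, chr3:114215086-114215385, plus strand: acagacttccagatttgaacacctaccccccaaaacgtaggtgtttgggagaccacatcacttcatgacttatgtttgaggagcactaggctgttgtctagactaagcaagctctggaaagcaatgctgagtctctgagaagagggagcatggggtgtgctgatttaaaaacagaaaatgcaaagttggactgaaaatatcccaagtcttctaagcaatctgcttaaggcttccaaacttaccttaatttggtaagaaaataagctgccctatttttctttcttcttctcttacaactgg

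The windows of Kcnd3 and Kcnma1 held 48 and 38 CpG dinucleotides at 77.7% and 78.3% G and C. The window of Kcna4 held 1 CpG at 41.7%, and that of Kcne3 held 11 at 60.3%. The GC box matched 2 times in Kcne3, 1 time in Kcnd3 and 5 times in Kcnma1, counting overlapping matches, and 0 times in Kcna4. Start windows were given for 56 of the 82 genes, some with more than 1 start, which made 61 windows. Of these, 34 held a GC box (55.7%), against 33.1% of all 33469 windows of the build. A TATA box stood in 1 of the 61, in Kcnj13, against 14.2% of all windows, and a cAMP response element in 0, against 1.83%. Among the 13 windows of genes above 5 CPM in all 6 libraries, 8 held a GC box (61.5%), beside 26 of 48 (54.2%) for the other channel genes. A match describes the letters of this window and shows no binding.

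Of the 82 genes, 18 exceeded 5 CPM in all 6 libraries (22.0%), where 56.3% of all genes did. Another 13 passed 5 CPM in some libraries, and 51 stayed at or below 5 CPM in every library. The 18 genes were Kcnn3 and Kcnn4 among the calcium-activated channels, Kcna6, Kcnd1, Kcnd3, Kcng3, Kcnh2, Kcnh8, Kcnq1 and Kcns3 among the voltage-gated ones, Kcnj2, Kcnj9 and Kcnj13 among the inward rectifiers, Kcnk1, Kcnk5 and Kcnk10 among the tandem-pore channels, and the auxiliary subunits Kcnab1 and Kcne3. The limit of 5 CPM favours long transcripts. The genes nearest below it were Kcnj14, with a lowest level of 4.47 CPM in WT1, and Kcnj8, with a lowest level of 3.37 CPM in HIP30. The genes nearest above it were Kcnj2, Kcnd1 and Kcng3, with lowest levels of 6.46, 6.48 and 6.66 CPM.

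**Figure D1:**
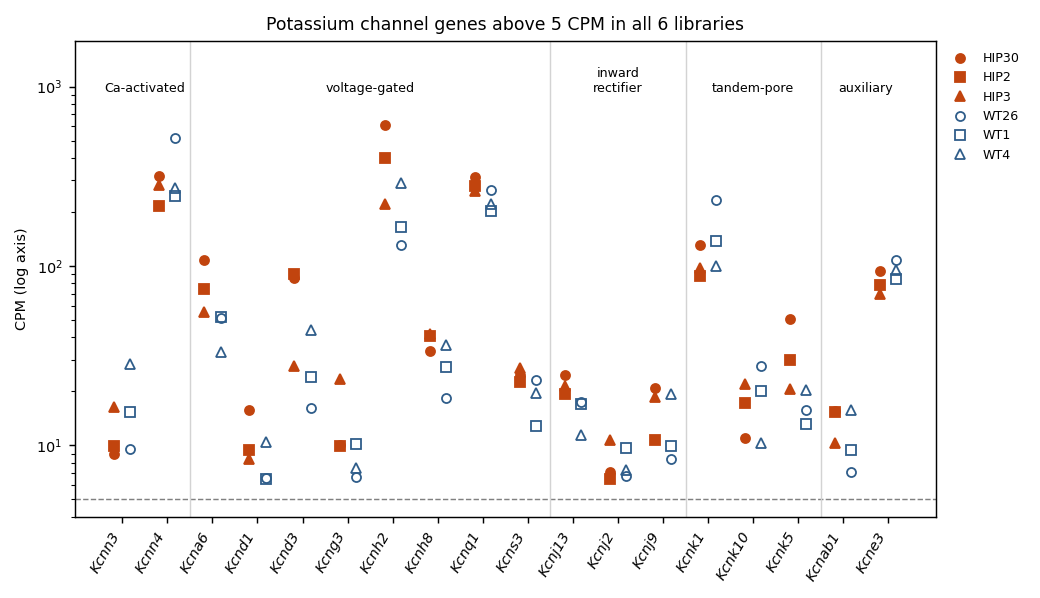
CPM on a log axis of the 18 potassium channel genes above 5 CPM in all 6 libraries, by channel class, with HIP libraries as filled symbols left of the open WT symbols and the dashed line at 5 CPM. The libraries of both groups interleave for most genes, while Kcna6, Kcnj13 and Kcnk5 have each HIP library above each WT library.

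Kcnn4 encodes the intermediate-conductance channel that calcium opens in secretory epithelia. It stood at 316, 217 and 284 CPM in the HIP libraries, against 519.9, 246 and 272 CPM in the WT libraries. WT26 was the highest library and HIP2 the lowest, and the other 4 lay between 246 and 316 CPM. The log2 difference of HIP minus WT was -0.35 with a standard error (SE) of 0.31 and did not pass (limma, Benjamini-Hochberg adjusted p = 0.817).

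Kcnq1 encodes a voltage-gated channel that works in epithelia as a standing potassium leak once Kcne3 joins it. Kcnq1 stood at 312, 280.2 and 261 CPM in the HIP libraries, against 267, 203 and 222 CPM in the WT libraries. It was the steadiest of the 18 genes, with a highest library 1.54 times its lowest, and the groups overlapped through WT26. Kcne3 stood at 94.3, 78.3 and 69.6 CPM in the HIP libraries, against 108, 84.3 and 94.7 CPM in the WT libraries. All 6 libraries lay within 1.55 times of each other. Other partners of Kcnq1 were scarce: Kcne1, which slows the channel in heart and inner ear, had 1 read in WT26 and none elsewhere, and Kcne2, the partner in gastric parietal cells, stood at 1.78, 0.807 and 0.778 CPM in the HIP libraries, against 0.455, 0.802 and 0.19 CPM in the WT libraries. Neither Kcnq1 nor Kcne3 passed limma's test, with log2 differences of 0.24 and -0.32 (adjusted p = 0.765 and 0.692). The annotation of GRCr8 has an uncharacterised gene overlapping each of Kcnq1 and Kcne3, and their reads could not be told apart, since the sources used here do not state whether counting used strand.

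Kcnk1 and Kcnk5 encode background channels of the tandem-pore class, and Kcnk5 is opened by alkaline pH and is known from the bicarbonate-handling kidney tubule. Kcnk1 stood at 131, 88.4 and 97.1 CPM in the HIP libraries, against 233, 137 and 99.4 CPM in the WT libraries. WT26 was highest, and the WT libraries reached down into the HIP range at WT4. Kcnk5 stood at 50.8, 29.9 and 20.6 CPM in the HIP libraries, against 15.7, 13.2 and 20.4 CPM in the WT libraries. Each HIP library lay above each WT library, but HIP3 and WT4 were apart by 20.6 against 20.4 CPM. The Kcnk5 difference of 0.88, with an SE of 0.34, did not pass over all genes (limma, adjusted p = 0.691). Kcnk10, a channel opened by stretch and lipids, stood at 11.0, 17.1 and 22.0 CPM in the HIP libraries, against 27.9, 20.2 and 10.4 CPM in the WT libraries, with both groups over the same range.

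Inward rectifiers pass potassium near the resting voltage. Kcnj13, a rectifier of ion-transporting epithelia such as the choroid plexus, stood at 24.6, 19.3 and 21.3 CPM in the HIP libraries, against 17.5, 16.9 and 11.4 CPM in the WT libraries. Each HIP library lay above each WT library, with HIP2 and WT26 the closest pair. Gigyf2 overlaps Kcnj13 in GRCr8, so reads of these genes may be mixed. Kcnj2, the classical strong rectifier, stood at 7.07, 6.46 and 10.8 CPM in the HIP libraries, against 6.77, 9.63 and 7.33 CPM in the WT libraries, with no separation of the groups. Kcnj9, a subunit of G-protein-gated channels, stood at 20.8, 10.7 and 18.7 CPM in the HIP libraries, against 8.36, 9.92 and 19.3 CPM in the WT libraries, with overlapping groups, and its reads may include those of Igsf8, which overlaps it in GRCr8. Kcnj15, a rectifier described in gastric and kidney epithelium, reached at most 0.948 CPM, in WT4.

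Among the voltage-gated genes, Kcna6, a Shaker-type delayed rectifier, stood at 109, 74.3 and 55.4 CPM in the HIP libraries, against 51.3, 51.6 and 33.3 CPM in the WT libraries. HIP3 at 55.4 and WT1 at 51.6 CPM were the closest libraries of the 2 groups, which did not overlap. Kcnh2, the channel of fast repolarisation in heart, stood at 611, 401 and 222 CPM in the HIP libraries, against 131, 165 and 291 CPM in the WT libraries. HIP30 and HIP2 were highest, and WT4 lay above HIP3. Kcnd3, a channel of fast transient outward current, stood at 85.7, 90.5 and 27.7 CPM in the HIP libraries, against 16.2, 24.1 and 44.1 CPM in the WT libraries, with the same libraries high and WT4 again above HIP3. Kcnd1, of the same family, stood at 15.7, 9.38 and 8.44 CPM in the HIP libraries, against 6.60, 6.48 and 10.5 CPM in the WT libraries. Kcnh8, a slowly opening relative of Kcnh2, stood at 33.5, 40.6 and 42.0 CPM in the HIP libraries, against 18.3, 27.4 and 36.3 CPM in the WT libraries. In both, the groups overlapped.

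Kcng3 and Kcns3 encode modifier subunits, which are known to form no channel alone and to join other voltage-gated subunits. Kcng3 stood at 10.1, 9.88 and 23.4 CPM in the HIP libraries, against 6.66, 10.2 and 7.46 CPM in the WT libraries, with HIP3 highest. Kcns3 stood at 24.6, 22.5 and 26.9 CPM in the HIP libraries, against 23.2, 12.8 and 19.7 CPM in the WT libraries, and WT1 was lowest. Kcnab1, a cytoplasmic beta subunit of Shaker-type channels, stood at 15.6, 15.3 and 10.3 CPM in the HIP libraries, against 7.11, 9.46 and 15.8 CPM in the WT libraries, over the same range in both groups. Kcnn3, a small-conductance channel opened by calcium, stood at 8.98, 9.88 and 16.3 CPM in the HIP libraries, against 9.56, 15.4 and 28.6 CPM in the WT libraries. Its 2 highest libraries were WT4 and HIP3, the libraries with abundant insulin transcripts.

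The comparison of HIP with WT addressed how the glands of pre-diabetic animals differ from normal ones. A low-count filter left 46 of the 82 genes for the test and 36 without one. Of the 46, 0 passed in either direction by limma at an adjusted p of 0.05, where 0.0% of all 12102 genes tested passed in each direction, and limma-voom also gave 0. At an unadjusted p under 0.05 limma gave 9 of the 46 (19.6%), 4 higher and 5 lower in HIP, beside 6.54% of all genes tested, and limma-voom gave 8. This count rested on single libraries: it was 1 without HIP30, 2 without HIP2, 3 without WT26, 3 without WT1, 13 without HIP3 and 12 without WT4. The count over all genes tested moved the same way, at 264, 227, 326, 314, 1781 and 1557 in the same order, against 792 with all libraries. The median log2 difference of the 46 was 0.35, with 29 positive and 17 negative, where that of all genes tested was 0.01 with 51.1% positive. The 46 include genes that passed the filter through 1 group alone, so these figures describe and support nothing further.

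None of the values below passed the test over all genes. The 4 higher genes at the unadjusted level were Kcnk5, Kcnh2, Kcna6 and Kcnd3, with log2 differences of 0.88, 0.96, 0.70 and 1.14 and SEs of 0.34, 0.37, 0.30 and 0.49. Each missed the threshold over all genes (limma, adjusted p = 0.691). All 4 stood above 5 CPM in all 6 libraries. Titles number 1 library per group 30 or 26 and the others 1 to 4, and the log2 difference was larger between HIP30 and WT26 than among the others for each of the 4 genes. For Kcnh2 it was 2.03 for HIP30 minus WT26 and 0.43 for the others, for Kcnd3 2.21 and 0.60, for Kcnk5 1.499 and 0.58, and for Kcna6 0.89 and 0.61. Groups did not overlap for 3 tested genes on the higher side, Kcna6, Kcnj13 and Kcnk5 (6.52% of the 46, where 6.14% of all genes tested did so). On the lower side they did not overlap for 4 (8.7%, against 3.86%), among them Kcnj8, Kcnk2 and Kcnk3. Kcnk3 passed the filter of 0.61 CPM in 3 libraries through WT alone, with at most 0.396 CPM in HIP. For such a gene the filter fixes the lower HIP values in advance, so this count is a description only.

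**Figure D2:**
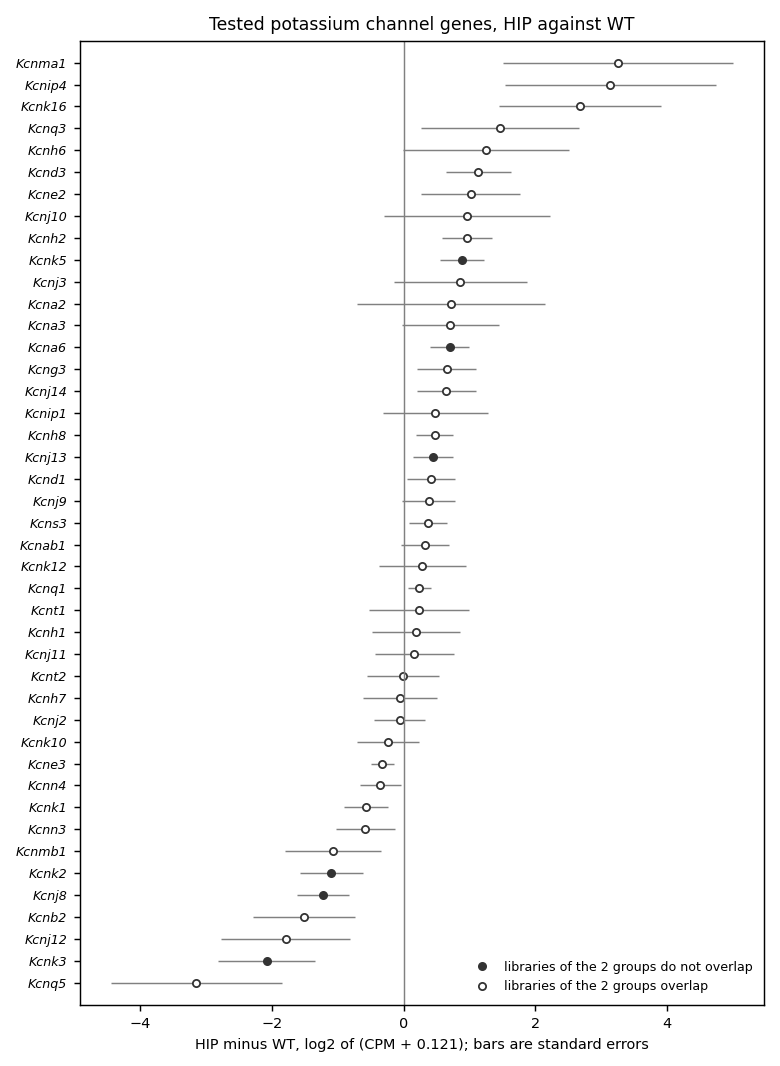
Differences of HIP minus WT on the log2 scale for 43 of the 46 tested potassium channel genes, with standard errors as bars and filled points where the libraries of the 2 groups do not overlap. The points run from -3.15 for Kcnq5 to 3.26 for Kcnma1, and the widest bars are those of Kcnma1 and Kcnip4, which had no read in WT26.

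The 5 lower genes included Kcnj8, Kcnk3, Kcnq5 and Kcnk2, and none of the 5 exceeded 5 CPM in all 6 libraries. Kcnj8 encodes the pore of the ATP-sensitive channel of vascular smooth muscle and pericytes. It stood at 3.37, 5.65 and 5.21 CPM in the HIP libraries, against 8.36, 10.0 and 13.6 CPM in the WT libraries. The groups did not overlap, and the difference was -1.23 with an SE of 0.40 (limma, adjusted p = 0.691). Its partner subunit Abcc9 stood at 38.6, 70.4 and 92.2 CPM in the HIP libraries, against 67.9, 108 and 150.5 CPM in the WT libraries, where HIP30 was lowest, WT4 highest and HIP2 and HIP3 lay above WT26. Abcc9 did not pass either, at -0.79 (SE 0.39; limma, adjusted p = 0.691).

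Kcnk2, a stretch-activated channel of smooth muscle and nerve, stood at 2.51, 3.54 and 4.85 CPM in the HIP libraries, against 5.92, 5.45 and 12.0 CPM in the WT libraries. Kcnk3, an acid-sensitive background channel of pulmonary artery muscle and carotid body, stood at 0.396, 0.0621 and 0.18 CPM in the HIP libraries, against 0.967, 1.15 and 1.26 CPM in the WT libraries, which is 6, 1 and 3 reads in the HIP libraries, against 17, 20 and 20 reads in the WT libraries. Both had each HIP library below each WT library, and Kcnk3 did so on 1 to 20 reads, having passed the filter through WT alone. Kcnmb1, the beta subunit of the large calcium-activated channel in smooth muscle, stood at 0.726, 0.435 and 2.09 CPM in the HIP libraries, against 2.73, 1.15 and 2.21 CPM in the WT libraries, with HIP3 inside the WT range.

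Markers of smooth muscle and pericytes were mostly lower in HIP as well, without passing. Of 14 tested markers 12 were negative, with a median log2 difference of -0.74, and 0 passed. The 12 include Abcc9, already given above as the partner of Kcnj8. Their summed level was 757, 759.6 and 849.5 CPM in the HIP libraries, against 733, 738 and 1012 CPM in the WT libraries. The sum was carried largely by Mylk and Notch3 in HIP30 and HIP2. In each WT library Notch3 was the largest member, at 351, 230 and 213 CPM. Mylk, a myosin kinase also made by other cells, and the pericyte marker Cspg4 were the 2 positive ones, and Mylk stood at 324, 284 and 165 CPM in the HIP libraries, against 16.7, 76.8 and 201 CPM in the WT libraries. Rgs5, which marks pericytes, stood at 58.1, 95.6 and 117 CPM in the HIP libraries, against 99.3, 133 and 182 CPM in the WT libraries. Myh11, which marks smooth muscle, stood at 4.62, 8.94 and 28.4 CPM in the HIP libraries, against 18.8, 18.2 and 25.98 CPM in the WT libraries. Cnn1, a contractile marker, had no read in HIP30, HIP2 or WT4. All 12 tested fibroblast markers were negative too, with a median of -1.08 and 0 passing, and their summed level was 572, 904 and 1867 CPM in the HIP libraries, against 1541, 2088 and 2515 CPM in the WT libraries. The part of these cells in the channel differences was not tested.

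**Figure D3:**
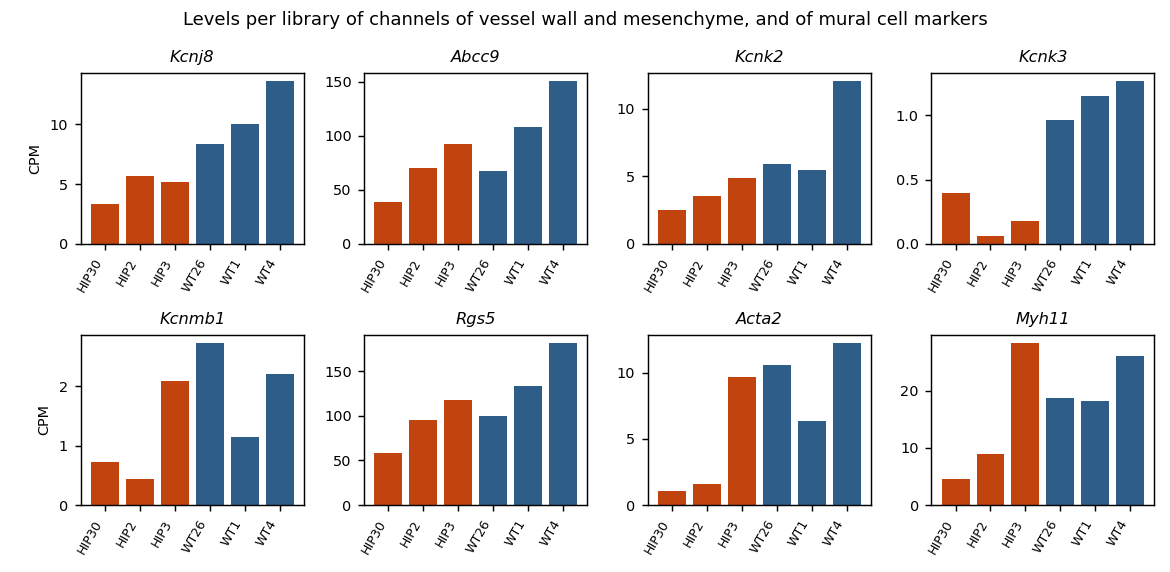
CPM per library, HIP bars left of WT bars, of the channel genes Kcnj8, Kcnk2, Kcnk3 and Kcnmb1, of the Kcnj8 partner Abcc9 and of the mural cell markers Rgs5, Acta2 and Myh11. Kcnj8, Kcnk2 and Kcnk3 are lower in each HIP library, while Abcc9, Rgs5, Acta2 and Myh11 overlap between the groups.

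Kcnq5 and Kcnq3 encode subunits of the slow current that muscarinic receptors shut off in neurons, and Kcnq5 is also a smooth muscle channel. Kcnq5 stood at 0, 0.435 and 5.51 CPM in the HIP libraries, against 8.31, 9.23 and 3.03 CPM in the WT libraries, with no read in HIP30, and HIP3 lay above WT4. Kcnq3 had the opposite libraries high, at 5.68, 6.46 and 0.239 CPM in the HIP libraries, against 0.284, 0.516 and 2.09 CPM in the WT libraries. A fitted difference against a library without reads depends on the pseudocount and is no bound, which holds for the value of -3.15 for Kcnq5.

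Several channel genes varied widely among the libraries of 1 genotype. Kcnma1 encodes the large-conductance channel opened by calcium and voltage, which carries potassium secretion in many glands. It stood at 49.2, 42.4 and 9.52 CPM in the HIP libraries, against 0, 6.08 and 27.2 CPM in the WT libraries. HIP30 and HIP2 were high, WT4 lay above HIP3, and WT26 had 0 of the 17574682 reads, which allows up to 0.171 CPM. Kcnip4, a calcium-binding partner of Kcnd-type channels, stood at 33.6, 30.4 and 7.90 CPM in the HIP libraries, against 0, 5.56 and 15.5 CPM in the WT libraries, in the same order of libraries and again with no read in WT26. Kcnma1 and Kcnip4 had log2 differences of 3.26 and 3.14 with SEs of 1.75 and 1.61, values that rest on the pseudocount in WT26 (limma, adjusted p = 0.691). Without WT26 the Kcnma1 difference was 1.01.

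The gamma subunit Lrrc26 lets the Kcnma1 channel open at resting voltage in secretory epithelia. It stood at 87.3, 82.0 and 89.9 CPM in the HIP libraries, against 102, 79.7 and 77.2 CPM in the WT libraries. Lrrc26 was thus near level in all 6 libraries, WT26 included, where Kcnma1 had no read. The beta subunits Kcnmb2 and Kcnmb4 had at most 1 and 5 reads in any library, and Kcnmb3 stood at 0.66, 1.12 and 0.299 CPM in the HIP libraries, against 0.341, 0.0573 and 0.442 CPM in the WT libraries.

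Libraries with high Kcnma1 also had high Kcnd3, Kcnh2 and Kcnip4, as given above. Kcnj10, a rectifier of glia and kidney, stood at 2.31, 2.17 and 0.12 CPM in the HIP libraries, against 0, 0.802 and 1.33 CPM in the WT libraries, also with HIP30, HIP2 and WT4 above the rest. The calcium-activated chloride channel Ano1 had the reverse order, at 34.1, 229.9 and 858 CPM in the HIP libraries, against 1238, 959.8 and 463 CPM in the WT libraries. Sctr, the secretin receptor, followed Kcnma1 at 211, 119 and 20.8 CPM in the HIP libraries, against 0, 6.99 and 51.4 CPM in the WT libraries. The summed level of markers of other islet endocrine cells was also highest in HIP30, HIP2 and WT4. It was 533, 350.2 and 128 CPM in the HIP libraries, against 78.7, 108 and 238 CPM in the WT libraries, and 10 of the 14 had no read in WT26. Hhex made up most of the sum in WT26 and WT1, at 66.2 and 57.1 CPM, so there the sum mostly follows that gene. The members of this list differed: Sst and Hhex were highest in HIP30 and HIP2, while Neurod1 and Pax6 were highest in WT4 and HIP3. Markers of macrophages and T cells summed to 2686, 2546 and 647 CPM in the HIP libraries, against 428, 632 and 861 CPM in the WT libraries, and 5 of 14 had no read in WT26. Mpeg1, a pore-forming protein of macrophages, made up most of this sum in HIP30 and HIP2 but not in the other libraries, at 2096, 1979 and 141 CPM in the HIP libraries, against 0, 169 and 192 CPM in the WT libraries. Cell division markers were low where Kcnma1 was highest, at 107, 503 and 2811 CPM in the HIP libraries, against 2214, 2987 and 2107 CPM in the WT libraries. The part of any of these cells in the channel levels was not tested.

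**Figure D4:**
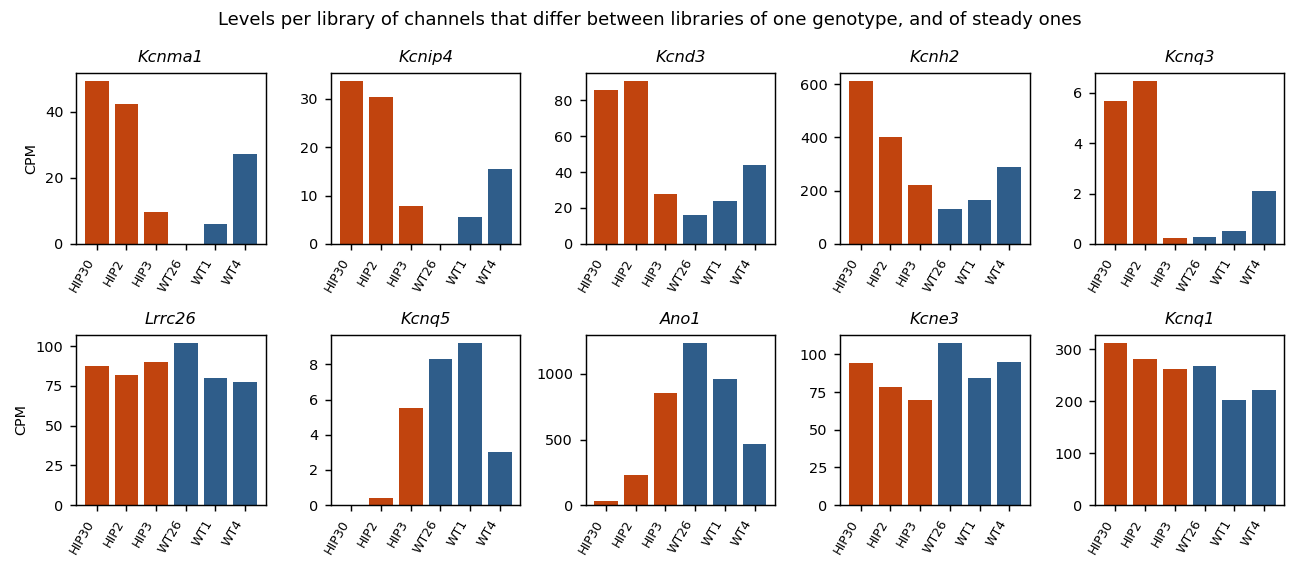
CPM per library, HIP bars left of WT bars, for Kcnma1, Kcnip4, Kcnd3, Kcnh2 and Kcnq3, for the Kcnma1 partner Lrrc26, for Kcnq5 and the chloride channel Ano1, and for Kcne3 and Kcnq1. The first 5 are higher in HIP30, HIP2 and WT4 than in HIP3, WT26 and WT1, Kcnq5 and Ano1 run the other way, and Lrrc26, Kcne3 and Kcnq1 are near level.

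Channel genes seen only where insulin transcripts were abundant were few. With more than 3 reads in HIP3 and WT4 and at most 3 in each other library, 3 of the 82 genes met the pattern (3.66%), where 1.24% of all genes did. Kcna4, a rapidly inactivating Shaker-type channel, had 0, 0 and 13 reads in the HIP libraries, against 0, 0 and 26 reads in the WT libraries. Kcnab3, a beta subunit, had 0, 2 and 22 reads in the HIP libraries, against 0, 0 and 5 reads in the WT libraries. Kcng4, a modifier subunit, had 0, 2 and 7 reads in the HIP libraries, against 3, 0 and 23 reads in the WT libraries. These are small counts, the highest being 26 reads, and Kcnab3 was highest in HIP3 while Kcna4 and Kcng4 were highest in WT4. Without HIP3 the count was 9, since WT4 then set the pattern alone.

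Further genes were seen elsewhere but stood higher in HIP3 and WT4 than in each other library, which made 9 of 82 in all (11.0%), where 7.5% of all genes did so. These were the 3 genes above with Kcna2, Kcnh1, Kcnip3, Kcnj6, Kcnn3 and Kcnt2. Kcnj6, a G-protein-gated rectifier found in islets and brain, stood at 0, 0.435 and 1.14 CPM in the HIP libraries, against 0, 0 and 4.55 CPM in the WT libraries. Kcna2, a channel of axons, stood at 0.198, 1.86 and 4.73 CPM in the HIP libraries, against 0, 1.66 and 2.84 CPM in the WT libraries, so that HIP3 held the highest level although WT4 held more insulin transcripts. Markers of nerve and Schwann cells summed to 68.0, 68.0 and 99.7 CPM in the HIP libraries, against 115, 61.3 and 123 CPM in the WT libraries. In WT26, 5 of the 13 listed had no read, Snap25 and Uchl1 among them. Chat made up most of the sum there, at 90.8 CPM, so that sum mostly follows Chat. The members of this list differed in which libraries were highest, with Tubb3 and Prph, both of neurons, highest in HIP30. Snap25, a fusion protein of nerve and endocrine cells, stood at 1.25, 2.48 and 8.08 CPM in the HIP libraries, against 0, 1.26 and 17.9 CPM in the WT libraries, highest in WT4 and HIP3. Scn7a, a sodium channel of glia and nerve, stood at 0.66, 2.17 and 7.12 CPM in the HIP libraries, against 0.854, 0.802 and 19.3 CPM in the WT libraries, with the same 2 libraries highest. Sox10, which defines Schwann cells, was at or near 0, with at most 0.442 CPM. The summed level of beta cell markers was 33.6, 189 and 5060.2 CPM in the HIP libraries, against 6.37, 102 and 12010.5 CPM in the WT libraries, and 9 of its 15 listed genes had no read in HIP30 and 13 in WT26. Acinar markers summed to 52.8, 37.3 and 137 CPM in the HIP libraries, against 42.8, 25.7 and 103 CPM in the WT libraries. Endothelial markers were also highest in HIP3 and WT4, at 275 and 332 CPM. Members of both lists differed, with Cela1 highest in WT26 and Pecam1 in HIP30. Whether beta cells, nerves, acinar cells, endothelium or other cells carried these channel reads was not tested.

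The channels best known from beta cells did not follow insulin. Kcnj11, the pore of the ATP-sensitive channel, stood at 9.31, 4.53 and 3.65 CPM in the HIP libraries, against 4.21, 2.24 and 9.80 CPM in the WT libraries. HIP30, with no read of Ins1 or Ins2, held about the same level as WT4, with the most. Its regulatory subunit Abcc8 stood at 8.52, 4.10 and 3.17 CPM in the HIP libraries, against 0.0569, 1.09 and 16.4 CPM in the WT libraries, with WT4 and HIP30 highest and 1 read in WT26. Kcnk16, a tandem-pore channel of islet endocrine cells, stood at 3.70, 1.86 and 2.75 CPM in the HIP libraries, against 0, 0.0573 and 3.48 CPM in the WT libraries. It was highest in HIP30 and near 0 in WT26 and WT1, and Nudt13 overlaps it in GRCr8.

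HIP30 was not free of endocrine transcripts. Sst, which encodes somatostatin, stood at 267, 175 and 9.93 CPM in the HIP libraries, against 0, 25.8 and 36.4 CPM in the WT libraries. Chgb, a granule protein, stood at 28.5, 29.1 and 26.8 CPM in the HIP libraries, against 0, 9.06 and 73.1 CPM in the WT libraries. Both were at 0 in WT26, where Kcnk16 had no read and Abcc8 had 1, while Kcnj11 had 74. Whether other endocrine cells carried the reads of these channel genes was not tested. Gcg, which encodes glucagon, had 0, 0 and 2 reads in the HIP libraries, against 0, 0 and 11 reads in the WT libraries. Of 12 tested beta cell markers 7 were positive and 5 negative, with 0 passing, and of 9 tested markers of other endocrine cells 9 were positive, with 0 passing. The differences of Kcnj11 and Kcnk16 were 0.17 and 2.68 with SEs of 0.59 and 1.24 (limma, adjusted p = 0.966 and 0.691). The sign for Kcnj11 turned with HIP30 left out (-0.179) and with WT1 left out (-0.305).

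Kcna3, the channel that sets the membrane voltage of lymphocytes, stood at 0.726, 1.55 and 1.08 CPM in the HIP libraries, against 0.228, 0.745 and 1.01 CPM in the WT libraries. The T cell marker Cd3e stood at 0.594, 2.36 and 0.778 CPM in the HIP libraries, against 0, 0.573 and 2.65 CPM in the WT libraries, and no read of it was found in WT26, where Kcna3 was lowest. Among other T cell markers, Cd2 and Cd8a also had no read in WT26, while Lck was lowest in WT1. Cd3e was highest in WT4 and Kcna3 in HIP2. Whether T cells carried the Kcna3 reads was not tested.

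The secretory partners of these channels went in both directions, and those of lowest p were higher in HIP. Of 29 transporters, channels and receptors of duct secretion fixed as a list, 28 were in the tables and 25 were tested, of which 12 were positive and 13 negative, with a median of -0.025 and 0 passing. At an unadjusted p under 0.05 limma gave 3 higher and 0 lower, where 3.29% and 3.26% of all genes tested were so. The 3 were Slc26a9, Clca1 and Cftr, each with every HIP library above every WT library. Slc26a9 and Clca1 had log2 differences of 1.42 and 1.27 with SEs of 0.29 and 0.27 (limma, adjusted p = 0.691). Cftr itself stood at 296, 318 and 329 CPM in the HIP libraries, against 169, 258 and 188 CPM in the WT libraries, each HIP library above each WT library, with a log2 difference of 0.57 (SE 0.22; limma, adjusted p = 0.691). The cotransporter Slc12a2, which loads chloride into the cell and brings in potassium that these channels recycle, stood at 772, 1081 and 1526 CPM in the HIP libraries, against 1067, 1638 and 887 CPM in the WT libraries. The groups overlapped. Of 13 tested partner subunits and regulators with other symbols, 6 were positive and 7 negative, with 0 passing.

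The 13 genes above 5 CPM in some but not all libraries included Kcnj8, Kcnk2, Kcnma1, Kcnip4 and Kcnj11, described above. Kcnh7, of the same family as Kcnh2, stood at 11.3, 10.3 and 2.81 CPM in the HIP libraries, against 5.29, 5.96 and 9.99 CPM in the WT libraries, and its reads may be mixed with those of Gca, which overlaps it in GRCr8. Kcnj14, an inward rectifier, stood at 17.6, 12.7 and 6.76 CPM in the HIP libraries, against 9.56, 4.47 and 7.65 CPM in the WT libraries, highest in HIP30 and HIP2. Kcnb2, a delayed rectifier, stood at 1.06, 0.435 and 2.51 CPM in the HIP libraries, against 1.59, 2.87 and 6.64 CPM in the WT libraries, highest in WT4. The groups overlapped for each of them.

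The remaining channel genes were low. The 51 genes at or below 5 CPM in every library reached at most 4.73 CPM, in Kcna2, and 5 of them, Kcna1, Kcne1, Kcng1, Kcnmb2 and Kcns1, had at most 3 reads in every library. The number of channel genes without a read was 19, 13 and 15 in the HIP libraries, against 21, 18 and 7 in the WT libraries. WT4, with the fewest unread genes of the whole table, was also lowest here. Kcna7, a Shaker-type gene of muscle that the filter left untested, had 0, 0 and 0 reads in the HIP libraries, against 12, 6 and 6 reads in the WT libraries. Kcnt1, which encodes a channel opened by sodium, stood at 3.57, 0.87 and 5.51 CPM in the HIP libraries, against 2.73, 1.15 and 2.91 CPM in the WT libraries. Kcnt2, its relative, stood at 1.85, 3.29 and 4.25 CPM in the HIP libraries, against 2.05, 2.52 and 4.42 CPM in the WT libraries. The groups overlapped in both.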

How the data were processed

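Laser-captured gland RNA was sequenced after low-input library preparation, per the labels' protocols. The submitters' processing notes list STAR, HTSeq, edgeR, limma and the rat build rn5, with no version and no order. The authors deposited log2 values per gene and library: CPM with a prior of 0.25 reads, a gene without reads standing at -6.04. Taking off the prior gave whole reads for 100% of entries within 0.1 reads. CPM in the text is unscaled. The test was limma 3.58.1 (R 4.3.3) with a trend in the variance prior, run on log2 of TMM-scaled CPM plus 2 reads (0.121 CPM), which understates changes of low genes. TMM factors were 0.933 to 1.09. A gene was tested where 3 libraries had at least 0.61 CPM (10 reads in the median library) and all had 15 reads in total, which 12102 genes did, with Benjamini-Hochberg adjustment. The deposited values are logs, so a count test was not planned, and none was run although whole reads were recovered. The symbols March1 and March2, on 4 rows, were left out. The fit was checked on simulated data.

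The 82 genes and the marker lists were chosen with earlier results of these data known. Named in full are channel genes above 5 CPM in all libraries, those seen only with Ins1 at 1000 CPM or more, the 3 of lowest p per direction, and a set of epithelial, beta cell, vessel and lymphocyte channels, 30 in all. Others were named after their values were seen, and some genes are not reported here. All 82 symbols match the GRCr8 gene table. Alternatives covered scaling, filter, pseudocount, limma-voom, a term for the title numbers 26 and 30 against 1 to 4, thresholds and leaving out each library. Figures were drawn with matplotlib 3.10.9.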

Additional observations from a re-analysis of the deposited data

How the results depend on the processing

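The number of channel genes that passed was 0 in all 15 fits, which covered scaling, filter, pseudocount, limma-voom, the title numbers and each library left out. The smallest adjusted p of a channel gene was 0.148, without HIP3. Over 26 named channel genes and the settings other than leaving out a library, 202 of 203 values kept their sign; Kcnj2 turned to 0.014 when libraries were scaled to their totals without TMM, a setting that moves the median of all genes to 0.083. With libraries left out in turn Kcnj2 ran from -0.324 to 0.112, Kcnj11 from -0.305 to 0.665 and Kcnk10 from -0.677 to 0.093. The channel genes with an unadjusted p under 0.05 numbered 4 under the filter of 5 CPM in 3 libraries, which tests 26 of them, where 614 of 10027 genes did so.

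The number above 5 CPM in all libraries was 20 at a limit of 3 CPM, 12 at 10 CPM and 18 to 20 with 1 library left out. The number seen only with abundant insulin was 1 with more than 10 reads asked in both libraries, 1 with Ins1 at 100 CPM, which adds HIP2, 6 with Ins1 at 5000 CPM, which leaves WT4 alone, and 9 when higher levels in both libraries were enough. With 1 library left out it ran from 3 to 9, with 9 without HIP3. The last 2 alternatives were added after seeing the data. No paired analysis was possible because the groups share no replicate number.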

Other observations

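Some channel genes had more reads in 1 or 2 libraries than in the others. Kcnk13, a tandem-pore channel known from microglia, had 35, 3 and 1 reads in the HIP libraries, against 2, 0 and 3 reads in the WT libraries, with HIP30 alone above 3 reads. Kcnc4, a Shaw-type channel, had 3, 9 and 10 reads in the HIP libraries, against 43, 7 and 1 reads in the WT libraries, and WT26 held most of them. Kcnc1, Kcnh4, Kcnh5, Kcnip2, Kcnj4 and Kcnv1 passed 3 reads in WT4 alone, at 18, 13, 6, 4, 5 and 11 reads, though for Kcnip2 the 4 reads were 1 above the 3 reads of HIP2, HIP3 and WT1. Kcnv2, a modifier subunit known from photoreceptors, had 0, 4 and 7 reads in the HIP libraries, against 6, 75 and 43 reads in the WT libraries, with WT1 and WT4 highest. These genes were picked after their values were seen.

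Kcnrg, a regulator of voltage-gated channels whose symbol falls outside the name rule, stood at 11.6, 8.26 and 5.51 CPM in the HIP libraries, against 3.47, 3.67 and 9.16 CPM in the WT libraries. HIP30, HIP2 and WT4 were its highest libraries, the same 3 in which Kcnma1, Kcnip4, Kcnd3 and Kcnh2 were highest.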
